A study of Homo sapiens with 6 samples.

Results

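The Rab small GTPases are the largest branch of the Ras superfamily, and each member marks a membrane compartment and recruits the effectors that move, tether or fuse its vesicles. A Rab cycles between a GDP-bound form, which is extracted from membranes by GDP dissociation inhibitors, and a GTP-bound form, which exchange factors generate and GTPase activating proteins switch off. To sit in a membrane it needs geranylgeranyl groups, which Rab geranylgeranyl transferase attaches with the help of a Rab escort protein. The geranylgeranyl donor is made from mevalonate, the product of the enzyme that statins inhibit, and mRNA levels do not report on the lipid modification itself. In hepatocytes, Rab proteins direct the secretion of plasma proteins and lipoproteins and the uptake and recycling of surface receptors.

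The genes described here were chosen by symbol, namely RAB followed by digits with an optional letter and digit, among the transcript clusters of the exon array that carry exactly 1 gene symbol. The rule found 41 genes, out of 12676 genes with such a cluster. One gene, *RAB36*, had more than 1 cluster, and the cluster with the highest mean stands for it. The pattern matches 63 protein-coding genes of the RefSeq gene table, of which 11 lie only in clusters shared with another gene and 11 more, among them *RAB1A* and *RAB18*, were not analysed here.

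HepG2, a human hepatoblastoma cell line used as a hepatocyte model, was grown for 24 h in medium in which lipoprotein deficient serum replaced the fetal serum. The 3 control samples received no drug, and the 3 treated samples received 10 µM atorvastatin. RNA of each sample went onto 1 Affymetrix exon array, which gives 1 log2 value per transcript cluster. The samples are separately treated wells of the same cell line, which the study counts as biological replicates, so the *p*-values cover the spread between wells.

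Array medians were 6.66 to 6.72 over all clusters. The 6 measured hepatocyte markers, among them *ALB*, *AFP* and *APOB*, had mean log2 values of 9.56 to 12.3. Of 10 measured markers of fibroblasts, endothelium, leukocytes and neurons, 9 were under 6, the level taken as dim, and *PDGFRB* had 6.64. On these arrays the lipogenic gene *ACSS2* was 1.86-fold and the mevalonate pathway gene *MVD* 1.67-fold higher on average in treated cells and the groups did not overlap in either gene. Both had an adjusted *p* = 0.535 in limma with replicate number as a block and were not called. Without the block *ACSS2* (limma, adjusted *p* = 0.016) and *MVD* (adjusted *p* = 0.0402) were among the 4 clusters called. Both were named after their values were seen, and *ACSS2* had the largest increase of all tested clusters. The mevalonate pathway gene *HMGCS1* was 1.66-fold higher, also with groups that did not overlap. It was not called with the block or without it (limma, adjusted *p* = 0.252 without). The arrays differed in the spread of their values, with an SD over the tested clusters of 1.83 in control replicate 1, 1.84 in atorvastatin replicate 3 and 1.90 to 1.94 in the other 4 arrays.

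No Rab gene was called different between atorvastatin-treated and control cells. Values were compared in limma with replicate number as a block, following the paired test of the methods, and *p*-values were adjusted over all 12797 clusters with 1 symbol. Of the 41 genes, 0 passed at an adjusted *p* of 0.05 (limma, all adjusted *p* = 1). The smallest unadjusted *p* was 0.197, so 0 genes were under 0.05 before adjustment either. Over all clusters, 0% were called and 0.992% had an unadjusted *p* under 0.05. Without the block, 0 Rab genes were called (smallest unadjusted *p* = 0.102 from limma), beside 0.0313% of all clusters. The mean was higher in treated cells for 22 genes and lower for 19, or 53.7% higher, and for all clusters the share was 55.8%. The median log2 difference was 0.004, beside 0.01 over all clusters. The median size of the difference without its sign was 0.06 for the Rab genes and 0.05 over all clusters.

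The differences ran from −1.11-fold for *RAB21* to 1.16-fold for *RAB25*, and 35 of the 41 were under 0.1 in size on the log2 scale. None reached 1.2-fold, a size seen in 1.23% of all clusters. The 95% confidence intervals are those of each gene on its own, without adjustment for the number of genes. All 41 intervals lay within 1.5-fold in both directions, from −1.41-fold to 1.47-fold at the extremes, as did those of 98.1% of all clusters. Only 3 intervals, those of *RAB5A*, *RAB24* and *RAB31*, lay within 1.2-fold, beside 16.7% of all clusters. With the methods' paired t-test, which estimates the spread of each gene from its own arrays alone, 25 of the 41 intervals lay within 1.5-fold. The extremes of those intervals were −1.29 and 1.22 on the log2 scale. The difference was smaller than the SD within groups in 31 of the 41 genes. The median of this SD was 0.115 in the Rab genes and 0.112 over all clusters, and it ran from 0.033 in *RAB11B* to 0.276 in *RAB33A*.

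**Figure D1:**
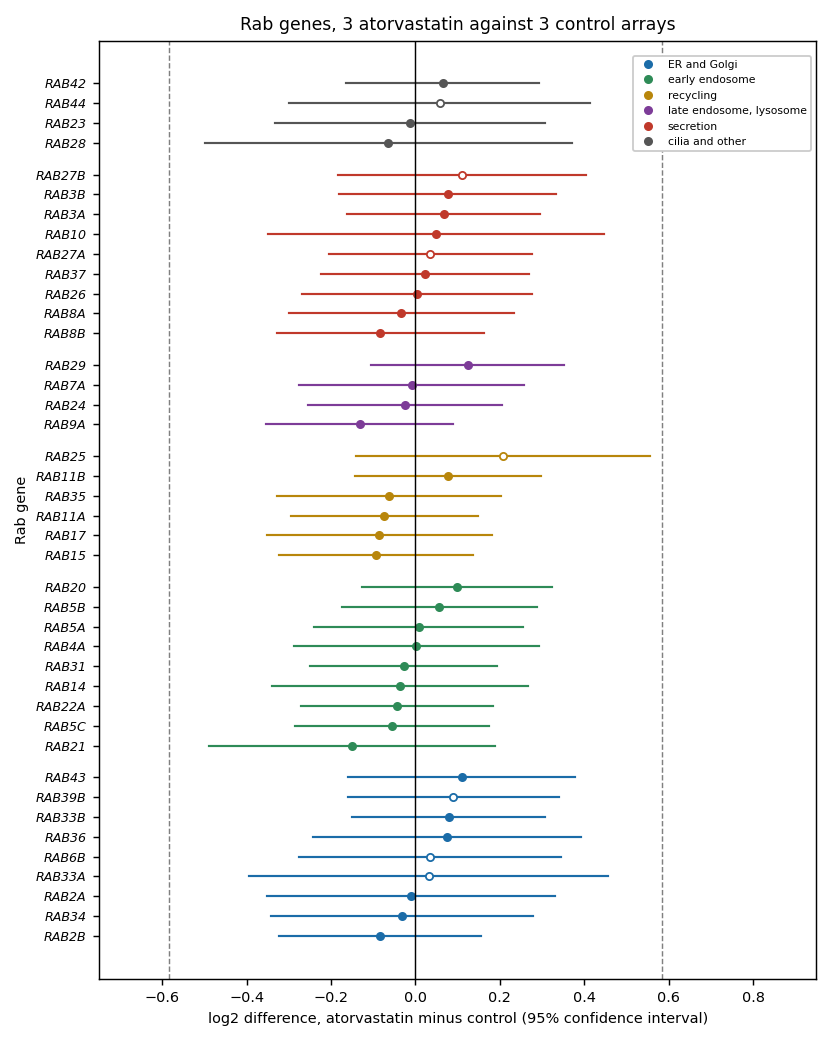
Log2 difference (atorvastatin minus control, x axis) of the 41 Rab genes (y axis), grouped by role, with the 95% confidence interval from limma as a line and genes with a mean log2 value under 6 as open points. All intervals cross 0, and all lie between the dashed lines at 1.5-fold in each direction.

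A few genes had control and treated arrays that did not overlap, although none passed the test. The treated arrays were all above the controls in 3 Rab genes, 7.32%, beside 4.57% of all clusters. They were all below the controls in 2 Rab genes, 4.88%, beside 2.68% of all clusters. *RAB29*, a Rab of the trans-Golgi network and stressed lysosomes that recruits the kinase LRRK2, had log2 values of 6.88, 6.91 and 7.02 in control and of 7.08, 7.06 and 7.04 in treated cells. The treated mean was 1.09-fold higher, a log2 difference of 0.12 with a 95% confidence interval of −0.10 to 0.35 (limma, adjusted *p* = 1). The groups were separated by 0.023, which is less than the spread of the 3 controls.

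*RAB20*, found on endosomes and maturing phagosomes, had log2 values of 7.22, 7.21 and 7.19 in control and of 7.24, 7.30 and 7.37 in treated cells. The controls were close together (SD 0.011, n = 3) and the treated arrays spread upwards from them (SD 0.065, n = 3), with a difference of 0.10 (95% confidence interval −0.13 to 0.32) and a gap between the groups of 0.027.

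*RAB11A* and *RAB11B*, close paralogs that return receptors from recycling endosomes to the surface, lay on opposite sides. *RAB11B* had log2 values of 9.61, 9.70 and 9.68 in control and of 9.74, 9.73 and 9.75 in treated cells, a difference of 0.08 (95% confidence interval −0.14 to 0.30). *RAB11A* had 8.998, 9.059 and 9.072 in control and 8.982, 8.990 and 8.936 in treated cells, a difference of −0.07 (95% confidence interval −0.30 to 0.15). They had the smallest SD within groups of the 41 genes, and the intervals of their differences overlap each other and 0. The gap between the groups was 0.034 for *RAB11B* and 0.0075 for *RAB11A*.

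*RAB2B*, a Golgi Rab, had log2 values of 8.70, 8.69 and 8.82 in control and of 8.69, 8.68 and 8.59 in treated cells, and its groups were separated by only 0.0031. Its difference was −0.08 (95% confidence interval −0.32 to 0.15). When each array was centred on its median, the groups of *RAB29*, *RAB11A* and *RAB2B* overlapped, and those of *RAB11B* and *RAB20* did not. With that centring, 4.3% of all clusters had all treated arrays above all controls and 1.8% had them all below.

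**Figure D2:**
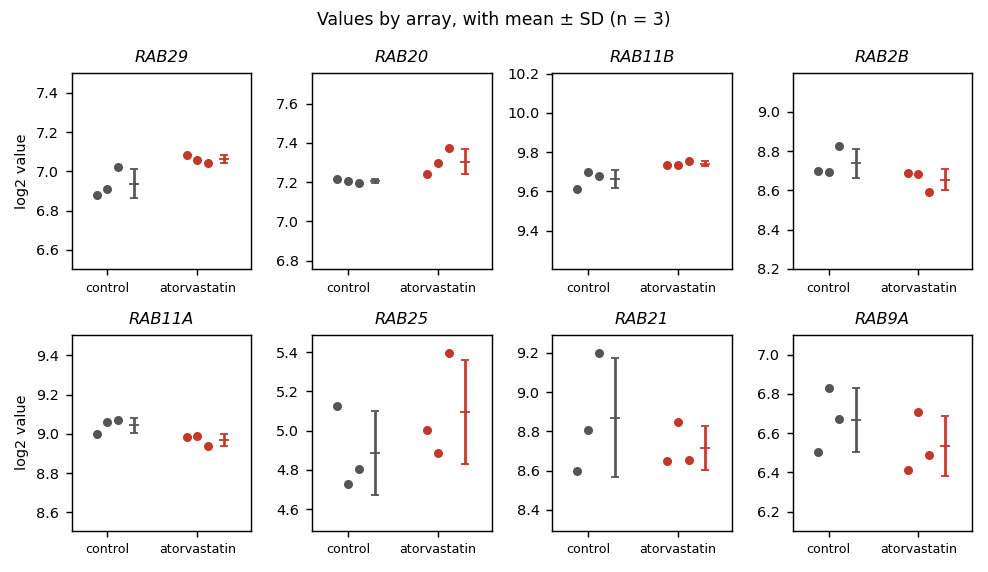
Log2 values (y axis, 1 unit high in each panel) of 8 Rab genes in the 3 control and 3 atorvastatin arrays, with the mean ± SD beside the points. The groups do not overlap in *RAB29*, *RAB20*, *RAB11B*, *RAB2B* and *RAB11A*, and overlap in *RAB25*, *RAB21* and *RAB9A*, whose mean differences are larger in size than that of *RAB11A*.

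The upstream sequences of the *RAB11* pair are shown because their arrays fell on opposite sides of the controls, although neither gene was called. A link between these sequences or their GC boxes and the differences was not tested. RefSeq windows, which run from 250 bases before to 50 after the gene start (GRCh38.p14), were matched for 31 of the 41 genes, with 45 windows in all. The GC box GGGCGG, the site of Sp1-type factors, searched on both strands, was in 37 of the 45 windows, 82.2%, beside 45.0% of all 35116 windows and 58.5% of those of the genes on the array. The 250 bases before the gene start of *RAB11A* lie at chr15:65869241-65869490 and those of *RAB11B* at chr19:8390110-8390359, both on the plus strand. Capitals mark GC boxes on either strand, of which each stretch holds 3.
RAB11A: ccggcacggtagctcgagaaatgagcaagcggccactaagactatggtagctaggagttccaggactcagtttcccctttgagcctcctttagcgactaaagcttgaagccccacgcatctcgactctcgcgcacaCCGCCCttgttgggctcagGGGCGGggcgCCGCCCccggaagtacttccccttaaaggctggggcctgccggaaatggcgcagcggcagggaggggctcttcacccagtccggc
RAB11B: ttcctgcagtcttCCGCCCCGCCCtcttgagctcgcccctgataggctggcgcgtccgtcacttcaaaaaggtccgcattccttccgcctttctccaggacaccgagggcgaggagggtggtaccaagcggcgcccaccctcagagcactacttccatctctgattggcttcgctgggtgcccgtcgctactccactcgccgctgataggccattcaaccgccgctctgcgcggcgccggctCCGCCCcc

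The sterol regulatory element TCACNCCAC, searched because it is the motif of the SREBP factors that statins activate, was in 0 of the 45 Rab windows on either strand, beside 1.13% of all windows and 1.12% of those of the genes on the array. The E-box CACGTG was in 6 Rab windows, 13.3%, beside 7.26% of all windows and 8.42% of those of the genes on the array, namely those of *RAB4A*, *RAB5A*, *RAB21*, *RAB24*, *RAB29* and *RAB31*. Of these 6 windows, 2, or 4.44% of the Rab windows, hold it within TCACGTGA, the core of the CLEAR motif of lysosomal genes, beside 0.98% of all windows and 1.37% of those of the genes on the array. The CCAAT box CCAAT, also searched on both strands, was in 11 Rab windows, 24.4%, beside 34.6% of all windows and 34.4% of those of the genes on the array. The 2 windows with TCACGTGA are shown whatever the difference of their genes. The log2 difference was 0.007 for *RAB5A*. For *RAB21* it was −0.15, the lowest of the 41 genes, and 0.05 without replicate 3. A link between the motif and the differences was not tested. They lie at chr3:19946959-19946998 (*RAB5A*) and chr12:71754826-71754865 (*RAB21*), both on the plus strand, with TCACGTGA in capitals.
RAB5A: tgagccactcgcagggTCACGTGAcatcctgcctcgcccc
RAB21: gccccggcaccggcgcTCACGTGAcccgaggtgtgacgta

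Among the Rabs of the endoplasmic reticulum and Golgi, 9 of 18 listed genes were measured and 6 of them had a higher mean in treated cells, with log2 differences from −0.08 (*RAB2B*) to 0.11 (*RAB43*). *RAB43*, a Rab of traffic through the Golgi, had values of 6.79, 7.08 and 6.75 in control and of 6.93, 6.97 and 7.05 in treated cells, so that control replicate 2 was the highest of the 6 arrays. Its difference had a 95% confidence interval of −0.16 to 0.38. *RAB39B*, a neuronal Rab linked to intellectual disability, was dim, with values of 3.75, 3.57 and 3.53 in control and of 3.87, 3.49 and 3.77 in treated cells. *RAB2A*, which acts between the endoplasmic reticulum and the Golgi, had a difference of −0.01 (95% confidence interval −0.35 to 0.33). *RAB6B*, the neuronal paralog of *RAB6A*, was also dim and had a difference of 0.04.

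Of the 10 listed Rabs of endocytosis and early endosomes, 9 were measured, and 4 had a higher mean and 5 a lower one. *RAB21*, which accompanies integrins into early endosomes, had the lowest difference of all Rab genes, −0.15 on the log2 scale (95% confidence interval −0.49 to 0.19). Its values were 8.60, 8.81 and 9.20 in control and 8.65, 8.85 and 8.65 in treated cells. Control replicate 3 was above the other 5 arrays, and the difference was 0.05 without replicate 3. The 3 *RAB5* paralogs, which drive the fusion of endocytic vesicles with early endosomes, had differences of 0.007 (*RAB5A*), 0.06 (*RAB5B*) and −0.06 (*RAB5C*). *RAB5C* had log2 values of 11.63, 11.54 and 11.60 in control and of 11.53, 11.59 and 11.48 in treated cells, with overlapping groups. *RAB4A*, of fast recycling, had a difference of 0.002 and *RAB14*, between the Golgi and endosomes, one of −0.04.

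All 6 listed Rabs of recycling endosomes were measured, and 4 of them had a lower mean in treated cells. The exception in size was *RAB25*, an epithelial relative of *RAB11A*, with the highest difference of the 41 genes, 0.21 on the log2 scale (95% confidence interval −0.14 to 0.56). Its values were 5.127, 4.726 and 4.806 in control and 5.004, 4.885 and 5.394 in treated cells. Atorvastatin replicate 3 was the highest array and control replicate 1 the second highest, the pair of arrays with the narrowest spread of values, and the difference was 0.02 without replicate 3. The part of the array spread in this difference was not tested. *RAB15*, which acts between early and recycling endosomes, had values of 7.51, 7.43 and 7.39 in control and of 7.30, 7.41 and 7.33 in treated cells. *RAB15* was lower in all 3 pairs of arrays with the same replicate number, a pairing that the values do not bear out. Its difference was −0.09 (95% confidence interval −0.32 to 0.14). *RAB17*, a Rab of polarised epithelia, had a difference of −0.09 and *RAB35*, of fast recycling, one of −0.06.

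Among the Rabs of late endosomes, lysosomes and autophagosomes, 4 of 8 listed genes were measured. *RAB9A*, which returns mannose 6-phosphate receptors from late endosomes to the Golgi, had the smallest *p* of the 41 genes (unadjusted *p* = 0.197, adjusted *p* = 1 from limma). Its values were 6.503, 6.83 and 6.67 in control and 6.41, 6.71 and 6.49 in treated cells. *RAB9A* was lower in all 3 pairs of arrays with the same replicate number, a pairing that the values do not bear out. The groups overlapped, with a difference of −0.13 (95% confidence interval −0.35 to 0.09). *RAB7A*, the main Rab of late endosomes and lysosomes, had values of 11.05, 11.23 and 11.32 in control and of 11.22, 11.25 and 11.09 in treated cells, and a difference of −0.009 (95% confidence interval −0.28 to 0.26). *RAB24*, linked to autophagy, had a difference of −0.02.

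Of the 12 listed Rabs of secretory vesicles and exocytosis, 9 were measured, 7 with a higher mean, and in none did the groups separate. *RAB27B*, a Rab of secretory granules and exosome release, was dim, with values of 3.76, 3.53 and 3.65 in control and of 3.62, 3.62 and 4.02 in treated cells. The difference of 0.11 rested on atorvastatin replicate 3 and was −0.02 without that array. Its paralog *RAB27A* was dim as well and had a difference of 0.04. *RAB3A* and *RAB3B*, of regulated exocytosis, had differences of 0.07 and 0.08, the latter with values of 8.57, 8.69 and 8.65 in control and of 8.78, 8.83 and 8.53 in treated cells. Atorvastatin replicate 3 was here the lowest of the 6 arrays. *RAB8A* and *RAB8B*, which direct Golgi-derived vesicles to the plasma membrane, had differences of −0.03 and −0.08. *RAB10*, a close relative of these, had 1 high array, atorvastatin replicate 1 with 10.4, against 9.86 to 10.1 in the other 5.

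The other 4 measured genes had differences from −0.06 (*RAB28*, of cilia) to 0.06 (*RAB42*). *RAB44*, an atypical large Rab, had values of 5.39, 5.34 and 5.12 in control and of 5.18, 5.24 and 5.60 in treated cells. *RAB23*, which restrains Hedgehog signalling, had a difference of −0.01 (95% confidence interval −0.33 to 0.31).

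Across arrays of both groups, the deviations of many Rab genes, though not all, went with how bright the gene was. The order of 2 control arrays did so over all clusters too. Of the 41 genes, 7 had a mean log2 value under 6, and all 7 had a higher value in control replicate 1 than in control replicate 3, beside 83.7% of all dim clusters. Of the other 34, 22 had the opposite order, 64.7%, beside 55.3% of all such clusters. The median deviation of the dim genes from their own means was 0.09 in control replicate 1 and 0.20 in atorvastatin replicate 3, the 2 arrays with the narrowest spread. In the other 4 arrays it was −0.13 to −0.05. For the brighter genes it was −0.08 and −0.06 in those 2 arrays and 0.002 to 0.04 in the rest.

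All 7 dim Rab genes (*RAB6B*, *RAB25*, *RAB27A*, *RAB27B*, *RAB33A*, *RAB39B* and *RAB44*) had a higher mean in treated cells, with a median difference of 0.06, beside 60.2% of all dim clusters with a higher mean. This count was 3 without replicate 3 and 3 without control replicate 3, and 4 without atorvastatin replicate 3. It was 7 after a further quantile normalization, with a median difference of 0.04. The part of the array spread in this count was not tested. *RAB33A*, of the Golgi, had the largest SD within groups of the 41 genes, with values of 5.70, 5.39 and 5.01 in control and of 5.20, 5.55 and 5.44 in treated cells, a difference of 0.03.

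**Figure D3:**
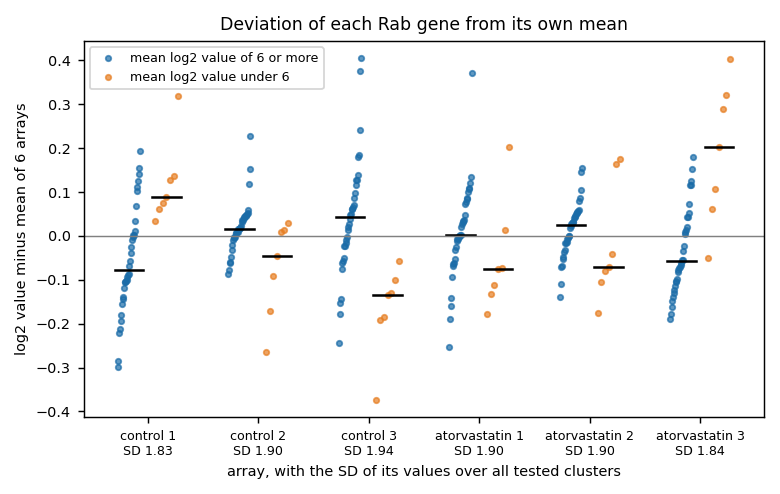
Deviation of each Rab gene from its mean over the 6 arrays (y axis, log2) in each array (x axis, with the SD of its values over all tested clusters), sorted within each strip, for 34 genes with a mean of 6 or more (blue) and 7 under 6 (orange), with medians as bars. By their medians, the dim genes are high and the brighter genes low in control replicate 1 and atorvastatin replicate 3.

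The genes that modify Rab proteins also showed no called change. Of 5 listed genes of Rab prenylation, 3 were measured and 0 called. *RABGGTA*, the alpha subunit of Rab geranylgeranyl transferase, had log2 values of 8.72, 8.64 and 8.64 in control and of 8.71, 8.73 and 8.67 in treated cells, a difference of 0.04 (95% confidence interval −0.18 to 0.26). *CHML*, a Rab escort protein, had 7.97, 8.27 and 8.23 in control and 8.20, 8.09 and 7.91 in treated cells, a difference of −0.09 (95% confidence interval −0.40 to 0.22). *GGPS1*, the synthase of geranylgeranyl diphosphate, had a difference of 0.10 (95% confidence interval −0.20 to 0.40), and all 3 genes had overlapping groups. *RABAC1*, a Golgi protein that binds prenylated Rabs, was the 1 measured gene of the 4 listed with the GDP dissociation inhibitors and had a difference of −0.03.

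Of 41 listed exchange factors, 27 were measured, 0 were called and the median difference was −0.01. *DENND4C*, an exchange factor for *RAB10*, had the smallest *p* of this list with a difference of −0.12 (95% confidence interval −0.38 to 0.14), and *SBF2* had −0.10. Of 38 listed GTPase activating proteins, 25 were measured, 0 were called and the median was 0.03. *TBC1D22B* had a difference of 0.18 (95% confidence interval −0.11 to 0.47), with atorvastatin replicate 1 at 8.92 and the other 2 treated arrays at 8.61 and 8.55, and *TBC1D21*, at a dim level, had 0.15. Of 51 listed effectors, 38 were measured, 0 were called and the median was 0.003. *EEA1*, the tether that RAB5 proteins recruit to early endosomes, had the smallest *p* among them, with values of 8.86, 8.96 and 9.04 in control and of 8.93, 8.71 and 8.69 in treated cells. The log2 difference of −0.18 had a 95% confidence interval of −0.45 to 0.10 (limma, adjusted *p* = 1), and *SH3TC2*, a RAB11 effector at a dim level, had a difference of 0.14. All treated arrays were above all controls in 3.7% of the exchange factors (*DENND3*) and 0% of the effectors, beside 4.57% of all clusters. They were all below in 0% of the exchange factors and 2.63% of the effectors (*SYTL2*), beside 2.68% of all clusters. For the GTPase activating proteins both shares were 0%.

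Among other small GTPases, listed for comparison by counts alone, the median difference was −0.03 in 12 Arf and Sar genes and 0.0006 in 21 Ras genes, again with 0 called. In the Arf and Sar list, the smallest *p* belonged to the dim *ARL14*, with −0.16, and to *SAR1A*, of vesicle budding from the endoplasmic reticulum, with −0.10. The groups of *SAR1A* did not overlap, nor did those of *ARL15*, which was higher in treated cells. All treated arrays were above all controls in 8.33% of the Arf and Sar list and below in 8.33%, beside 4.57% and 2.68% of all clusters. In the Ras list, *DIRAS3* (0.34), *RASD2* (−0.34) and *DIRAS1* (0.23) had differences larger in size than any Rab gene, and their groups did not overlap. All treated arrays were above all controls in 9.52% of this list, beside 4.57% of all clusters. They were all below in 4.76%, beside 2.68% of all clusters. *DIRAS3* and *RASD2* were dim and *DIRAS1*, with a mean of 6.30, was not. These 3 of the 21 genes had an unadjusted *p* under 0.05, beside 0.992% of all clusters, and each had an adjusted *p* = 1 from limma.

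**Figure D4:**
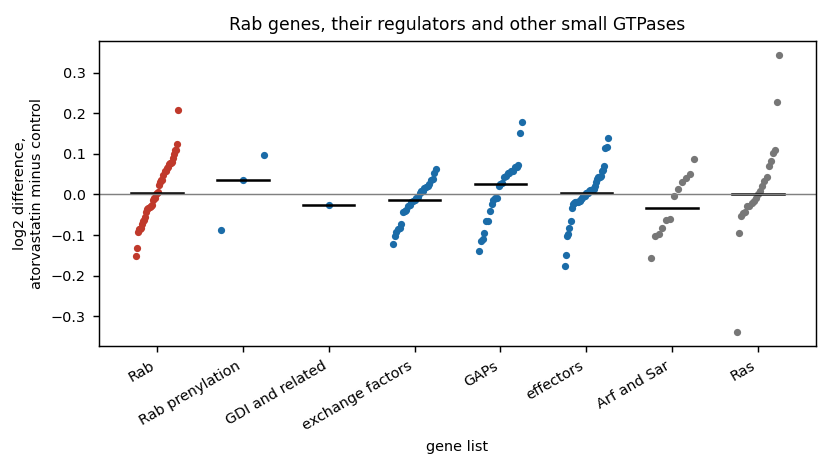
Log2 difference (atorvastatin minus control, y axis) of the measured genes of each list (x axis), with the Rab genes in red, their prenylation, regulator and effector genes in blue and other small GTPase families in grey, sorted within each strip, with medians as bars. The medians lie between −0.03 and 0.04, and the widest differences are in the Ras list.

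Clusters shared with another gene fall outside the rule, since their value cannot be assigned to the Rab gene alone. There were 14 of these, 7 with a higher and 7 with a lower mean and 0 called over all 16634 clusters. The cluster of *RAB1B*, which acts between the endoplasmic reticulum and the Golgi, is shared with the pseudogene *RAB1C* and had values of 10.53, 10.55 and 10.53 in control and of 10.51, 10.67 and 10.50 in treated cells, a difference of 0.03 (95% confidence interval −0.21 to 0.26). A cluster annotated to *RAB6C*, *RAB6A* and *RAB6D* together was dim and had a difference of −0.15 (95% confidence interval −0.45 to 0.15). It does not give the level of *RAB6A*, a Golgi Rab. The cluster of *RAB30* and *SNORA70E* and that of *SHCBP1* and *RAB43* had all treated arrays below all controls, with differences of −0.12 and −0.15. These were 2 of the 14, beside 2.7% of all 16634 clusters. In 0 of the 14 were all treated arrays above all controls, beside 4.43% of all clusters. The cluster of *RAB43* alone had a difference of 0.11. The largest difference was 0.22 in the cluster of *MPV17L2* and *RAB3A*, whereas the cluster of *RAB3A* alone had 0.07.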

How the data were processed

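Exon arrays measured RNA of 6 HepG2 samples, 3 without drug and 3 with atorvastatin. The authors normalized the arrays by RMA in Partek Genomics Suite and took, for each gene, the mean over its core probe sets, so the deposited values are log2 values (1.48 to 13.05) per transcript cluster. Versions are not given in the sources used here. The submitters' processing notes name hg18, so no cluster coordinates are given.

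Clusters were named through GEO's platform annotation, and 12774 of 12797 clusters with 1 symbol had an ID that RefSeq lists. Levels of different genes come from different probes and were not ranked, and cross-hybridization between paralogs or pseudogenes was not assessed. Log2 values were compared in limma 3.58.1 (R 4.3.3, lmFit and eBayes) with replicate number as a block (2 residual and 4.58 prior degrees of freedom), with Benjamini-Hochberg adjustment at 5% over all clusters. The methods name a paired test, hence the block, although deviations of arrays with the same number correlated with −0.46, 0.07 and −0.56, so the values do not bear out a pairing. Fold changes are 2 to the power of the log2 difference, with a minus sign for decreases. The fits were run on simulated arrays with known differences, each drawn independently. These arrays held no replicate effect and no difference in array spread, so the simulation cannot check how the fits handle either.

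The members, the lists and the rule for named genes were chosen with earlier results of these data known. The rule names the members whose groups do not overlap, the 3 higher and 3 lower with the smallest *p* that moved one way in all pairs, the extremes, the 2 smallest *p* of each role, close paralogs, and in other lists the smallest *p*. Genes outside it (such as *RAB2A*, *RAB4A*, *RAB7A*, *RAB8A*, *RAB10*, *RAB14*, *RAB17*, *RAB23*, *RAB24*, *RAB28*, *RAB31* and *RAB35*) were named after their values were seen. Motifs were searched with Python 3.11.15 (pandas 2.3.3) in RefSeq promoter windows, also with the values known, and figures were drawn with matplotlib 3.10.9. The prenylation motifs of the proteins were planned for comparison and were not analysed here, and 1 comparison list is not reported here. The alternatives were no block, a trended and robust variance, a dim filter, median centring, quantile normalization, every cluster, the mean of a gene's clusters, the methods' paired t-test, and each replicate or array left out.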

Additional observations from a re-analysis of the deposited data

How the results depend on the processing

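The call of 0 Rab genes and of 0 regulator or effector genes was the same with no replicate block and under each of the other 16 alternatives. The calls over all clusters went from 0 to 4 with no block and to 21 where the variance was trended and robust. They went to 16 where replicate 1 was left out, to 32 where replicate 3 was and to 6 where control replicate 1 was. Under every other alternative no cluster of any gene was called, so the agreement there is not a separate result about the Rab genes. Of all named Rab genes, the smallest adjusted *p* under any alternative was 0.519 (limma). The median log2 difference was −0.026 to 0.0272 when replicates or arrays were left out, and 20 to 25 genes then had a higher mean. The genes with all treated arrays above all controls numbered 3 to 8 in these fits, and those below 2 to 9. The shares over all clusters also grew. Without replicate 3, 8 of the 41 Rab genes were above and 7 below, beside 12.3% and 17.3% of all clusters. Without replicate 2, 7 were above and 8 below, beside 9.69% and 9.64% of all clusters. Without replicate 1, 7 were above and 9 below, beside 29.6% and 20.2% of all clusters. The 2 genes below became 0 with arrays centred on their medians, and the share of all clusters below went from 2.68% to 1.8%. The 3 genes above became 2, and the share of all clusters above went from 4.57% to 4.3%. The count of 41 intervals within 1.5-fold, repeated under the alternatives after seeing the data, was 25 with the methods' paired t-test and 37 to 41 with arrays left out. Of 23 named Rab genes, 16 kept their direction under all alternatives run. The 7 that did not changed it only when a replicate or array was left out: the log2 difference was −0.287 to 0.0451 for *RAB21*, −0.0438 to 0.106 for *RAB27A*, −0.024 to 0.234 for *RAB27B*, −0.171 to 0.296 for *RAB33A*, −0.155 to 0.19 for *RAB44*, −0.0795 to 0.066 for *RAB5A* and −0.116 to 0.172 for *RAB6B*. The cause was not tested. The number of arrays limits the precision, and only 3 of the 41 intervals lay within 1.2-fold.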
